A study of Rattus norvegicus with 2 samples.

Results

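Antioxidant and redox genes form a group of 32 genes chosen by symbol for their function, with earlier results of these data known. They encode the superoxide dismutases, catalase, the glutathione peroxidases, the peroxiredoxins and sulfiredoxin, the thioredoxin system, enzymes that make, recycle and use glutathione, the heme oxygenases, the quinone reductase Nqo1, and the regulators Nfe2l2 (Nrf2) and Keap1. All 32 had a value on both arrays, out of 12092 named genes with a value on at least 1 array, and they were read by 54 of the 44290 probes. RNA came from the hypothalamus of male Wistar rats that entered the study just weaned, at 21 days of age, and were housed singly, screened from each other. Tickled rats were handled in a way that imitates rough play and evokes 50 kHz calls, light-touched rats had a gentle contact that in general does not evoke them, and rats with no stimulus were left alone. Handling took place each weekday for 4 weeks. Each condition had 4 animals, per the labels, and whether their RNA was pooled is not stated. The tickled group was in Cy5 on both arrays, with the no-stimulus group in Cy3 on one and the light-touch group in Cy3 on the other. Each comparison had 1 array, so no value below was set against variation between animals, no test was possible, and sizes are a description of these arrays.

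Reactive oxygen species leak from mitochondria and are made by oxidases. Superoxide dismutases turn superoxide into hydrogen peroxide, which catalase, glutathione peroxidases and peroxiredoxins then reduce. Glutathione and thioredoxin supply the electrons and are recharged by reductases at the cost of NADPH. The transcription factor Nrf2 is held in the cytoplasm and marked for breakdown by Keap1, and under oxidative or electrophilic stress it enters the nucleus and binds the antioxidant response element (ARE) of many genes of this system. In brain, much of the glutathione system lies in astrocytes, and neurons take up precursors that astrocytes release.

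The ARE core, TGACNNNGC on either strand, was looked for in the RefSeq promoter windows of the GRCr8 assembly, which run from 250 bases before to 50 bases after a gene's start. Of the 28 members with a window, 11 held it (39.3%), against 15.0% of the 9996 array genes with a window and 12.1% of all 33469 windows. These 11 were Gclm, Gpx2, Gsta3, Gstp1, Hmox2, Nfe2l2, Prdx1, Prdx4, Prdx5, Sod2 and Txnrd1. A match is a description of letters and not a binding site. The windows of 5 members are shown because they carry the core and stand at different places in the ratios below. Gclm and Gpx2 were the members farthest above 1, Gsta3 and Gstp1 are glutathione transferases, and Prdx1 lay at 1. They are written 5′ to 3′ on the gene's strand, with the core in capitals (GCNNNGTCA where it lies on the opposite strand).
Gclm (chr2:213031885-213032184, plus strand): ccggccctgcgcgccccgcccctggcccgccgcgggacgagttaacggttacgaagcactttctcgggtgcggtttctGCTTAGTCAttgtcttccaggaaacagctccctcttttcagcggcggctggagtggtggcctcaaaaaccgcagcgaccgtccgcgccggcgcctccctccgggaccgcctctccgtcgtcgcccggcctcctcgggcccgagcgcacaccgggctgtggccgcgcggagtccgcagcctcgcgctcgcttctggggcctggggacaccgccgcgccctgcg
Gpx2 (chr6:101229984-101230283, minus strand): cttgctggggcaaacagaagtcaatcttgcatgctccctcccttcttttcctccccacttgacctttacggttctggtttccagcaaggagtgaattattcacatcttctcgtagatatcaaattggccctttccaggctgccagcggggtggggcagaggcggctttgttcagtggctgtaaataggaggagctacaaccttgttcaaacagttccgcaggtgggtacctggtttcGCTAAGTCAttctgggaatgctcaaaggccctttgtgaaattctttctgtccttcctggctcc
Gsta3 (chr9:31154739-31155038, plus strand): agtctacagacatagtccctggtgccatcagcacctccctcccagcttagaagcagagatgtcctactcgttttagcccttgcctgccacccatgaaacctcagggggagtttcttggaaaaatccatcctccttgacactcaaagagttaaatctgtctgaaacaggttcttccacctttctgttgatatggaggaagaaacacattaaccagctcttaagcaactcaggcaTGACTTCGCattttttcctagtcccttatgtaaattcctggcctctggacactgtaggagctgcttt
Gstp1 (chr1:210769656-210769955, minus strand): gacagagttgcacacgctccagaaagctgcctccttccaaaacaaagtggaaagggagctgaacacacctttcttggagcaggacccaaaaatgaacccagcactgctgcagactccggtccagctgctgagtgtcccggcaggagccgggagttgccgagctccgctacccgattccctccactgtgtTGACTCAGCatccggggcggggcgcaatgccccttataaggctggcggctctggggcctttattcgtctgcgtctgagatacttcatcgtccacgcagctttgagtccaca
Prdx1 (chr5:135383656-135383955, plus strand): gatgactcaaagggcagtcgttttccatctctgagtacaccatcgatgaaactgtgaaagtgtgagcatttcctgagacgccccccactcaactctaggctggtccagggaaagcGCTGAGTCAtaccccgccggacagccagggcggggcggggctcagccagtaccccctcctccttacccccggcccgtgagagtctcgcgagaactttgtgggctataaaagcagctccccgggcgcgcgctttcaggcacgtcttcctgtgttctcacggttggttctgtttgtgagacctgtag
The core began 172 bases before the start in Gclm, 135 in Prdx1, 61 in Gstp1, 17 in Gsta3 and 13 in Gpx2. Gsta3 had another window without it.

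Values are the authors' linear ratios, read as tickled over control. That direction is likely, because the tickled group was in Cy5 and such ratios are usually given as red over green, but no source states it. If it was the reverse, values above and below 1 trade places. A gene's value is the median of its probes. Across the 32 members the median log2 ratio was 0.02 on the no-stimulus array, with 17 above a ratio of 1, 14 below and 1 at 1. On the light-touch array it was 0.05, with 19 above, 12 below and 1 at 1. The median over all named genes was 0.01 on both arrays, and 51.8% and 51.3% of genes lay above 1. Against no stimulus 2 of the 32 members were 25% or more above 1 or 20% or more below it, Gpx2 on the high side and Keap1 on the low side, where 8.36% of the 11881 genes were. Against light touch 1 member was, Gclm, where 9.47% of 11745 genes were. At 1.5-fold the count of members was 0 on both arrays, against 1.98% and 2.49% of genes. The members' shares past these bounds were no larger than those of all genes. Their median distance from 1 was 0.08 and 0.09 log2 units, against 0.09 and 0.10 over all genes. These shares depend on probe number. Of all genes with 1 probe, 11.1% and 12.4% were past the first bound, and of those with 2 or more, 3.70% and 4.24%. Among members with several measured probes, 1 of 16 and 1 of 15 were.

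**Figure D1:**
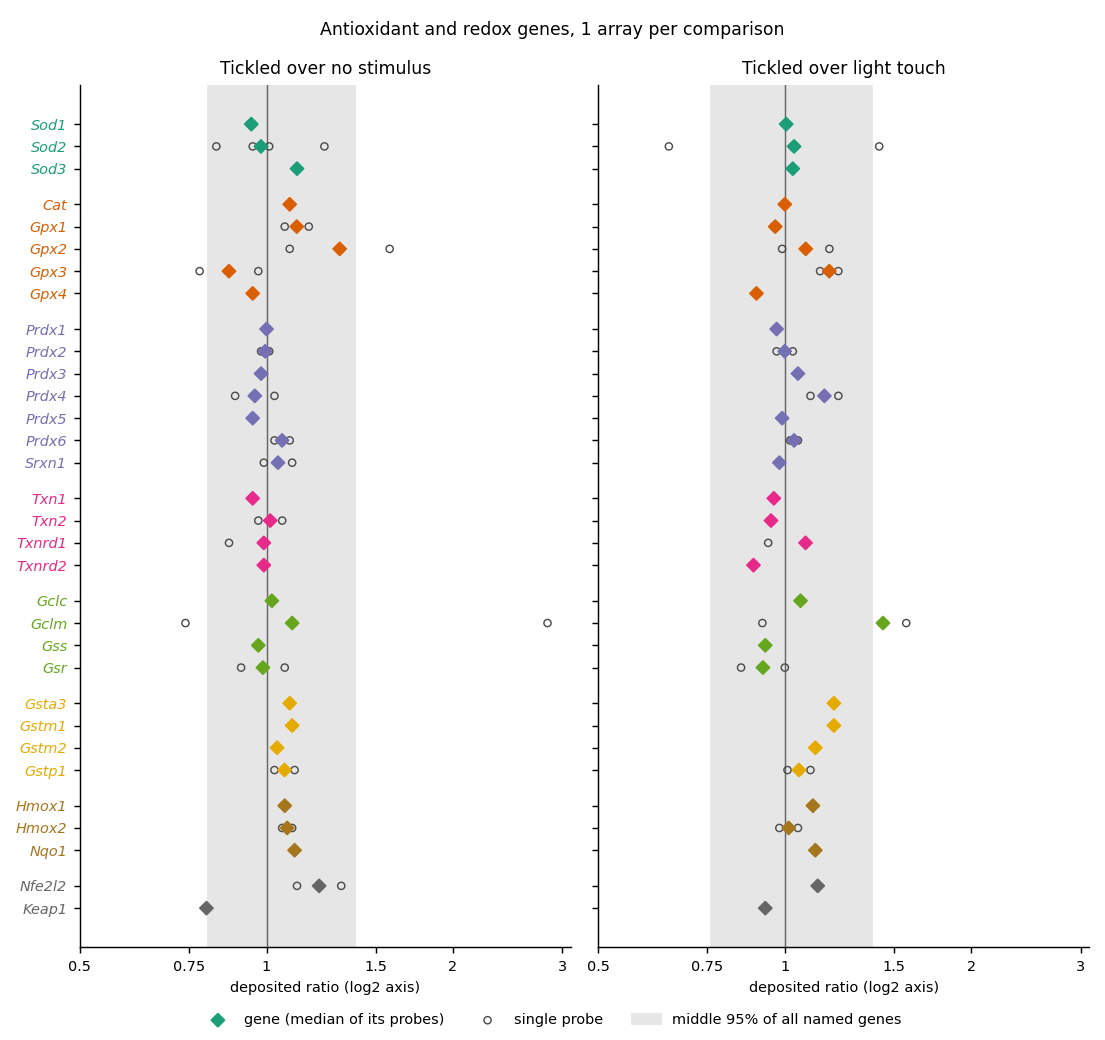
Deposited ratio of each of the 32 genes against no stimulus (left) and light touch (right), on a log2 axis, coloured by role. Diamonds are gene medians, open circles single probes, and the grey band the middle 95% of all named genes; Gclm and Sod2 have probes far from each other, and most other genes lie between 0.9 and 1.2.

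**Figure D2:**
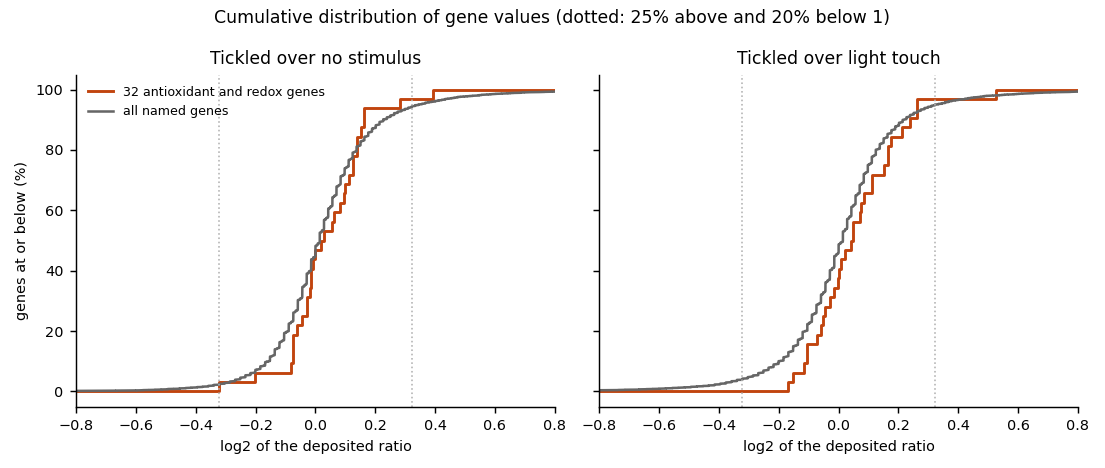
Percentage of genes at or below each log2 ratio against no stimulus (left) and light touch (right), for the 32 antioxidant and redox genes and for all named genes. Dotted lines mark 25% above 1 and 20% below it; 2 members lie on or outside them on the left and 1 on the right.

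The only error these data hold is the spread between probes of 1 gene, which leaves out animals. Over all genes it was 0.18 log2 units (pooled SD, 4354 and 4226 genes), or 1.13-fold. Of the 16 members with several measured probes on the no-stimulus array, 7 had their highest probe within 10% of their lowest and 13 within 25%. On the light-touch array these counts were 9 and 13 of 15. The exceptions were Gclm and Sod2 on both arrays, and Gpx2 on the no-stimulus array. The pooled probe SD of the members was 0.35 against no stimulus and 0.24 against light touch, and without Gclm it was 0.17 and 0.21. Most members lay within 1 probe SD of a ratio of 1.

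The superoxide dismutases differed little from 1. Cytosolic Sod1 was read alike by both probes, at 0.95 and 0.94 against no stimulus and at 1.01 and 1.0 against light touch. Extracellular Sod3, with 1 probe, had 1.12 and 1.03. For mitochondrial Sod2 the gene values were 0.98 and 1.03, but its 4 probes gave 0.83, 0.95, 1.01 and 1.24 against no stimulus. Against light touch they gave 0.65, 1.03, 1.04 and 1.42. The probe at 0.65 and one of those near 1 are annotated to the same transcript entry, so the ratio of Sod2 was not settled. On the light-touch array all 3 gene values were above 1, and at most 1.03, and with the middle 80% of probe numbers Sod2 was below 1, with a log2 ratio of -0.28.

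Hydrogen peroxide is removed by catalase, chiefly in peroxisomes, and Cat had ratios of 1.09 against no stimulus and 1.0 against light touch. The glutathione peroxidases, which are mostly selenoproteins, did not move as a block. Gpx1, the general cytosolic form, had probes at 1.07 and 1.17 against no stimulus and at 0.97 and 0.96 against light touch. Gpx2, known as the gastrointestinal form, had the highest gene value on the no-stimulus array, at 1.31, above 96.0% of genes. Its probes there were far apart, at 1.09 and 1.58, and on the light-touch array they gave 0.99 and 1.18. Gpx4, which reduces lipid peroxides in membranes and guards against ferroptosis, had 0.95 and 0.90.

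Gpx3, the secreted plasma form, stood on opposite sides of 1. Its probes gave 0.97 and 0.78 against no stimulus and 1.22 and 1.14 against light touch. The gene values were 0.87, near the bottom of the array (percentile 6.28), and 1.18, near the top (percentile 91.0). On the log2 scale they were -0.20 and 0.24, each a little more than 1 probe SD from 0.

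Peroxiredoxins are abundant thiol peroxidases, and sulfiredoxin restores those that have been overoxidised. Their values lay close to 1, with group medians of -0.01 and -0.001 log2 units over 7 genes. Prdx1 had 1.0 and 0.97, and Prdx2, a neuronal and red cell form, had probes at 0.98 and 1.01 against no stimulus and at 1.03 and 0.97 against light touch. Mitochondrial Prdx3 had 0.98 and 1.05, Prdx5 0.95 and 0.99, and Prdx6, which is rich in astrocytes, 1.06 and 1.03. Prdx4, the form of the endoplasmic reticulum, was the exception in the light-touch comparison. Its probes gave 1.22 and 1.10 there, above 89.2% of genes as a gene value, and 1.03 and 0.89 against no stimulus. Sulfiredoxin, Srxn1, had probes at 0.99 and 1.10 against no stimulus and both at 0.98 against light touch.

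In the thioredoxin system 3 of 4 genes were below 1 on each array, all by little. Of all genes, 45.1% and 46.1% were below. Cytosolic thioredoxin, Txn1, had 0.95 and 0.96, and mitochondrial Txn2 1.01 and 0.95. Among the selenoprotein reductases that recharge them, Txnrd1 had 3 probes at 0.87, 0.99 and 0.99 against no stimulus and at 0.94, 1.08 and 1.08 against light touch. Txnrd2, its mitochondrial counterpart, had 0.99 against no stimulus and 0.89 against light touch, where it was the lowest member. With the local median subtracted, 2 of the 4 were below 1 on the no-stimulus array. The 4 mitochondrial members (Sod2, Prdx3, Txn2 and Txnrd2) had medians of -0.02 and -0.01 log2 units, and the median of the 6 selenoproteins was -0.01 and 0.03.

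Glutathione is made in steps by glutamate-cysteine ligase, whose catalytic subunit is Gclc and whose modifier subunit is Gclm, and by glutathione synthetase, Gss. Gclc had ratios of 1.02 and 1.06, Gss 0.97 and 0.93, and glutathione reductase, Gsr, 0.987 and 0.922 from probes at 1.07 and 0.91, and at 1.0 and 0.85. Gclm carried the largest spread of all members. Against no stimulus its 3 probes gave 0.74, 1.10 and 2.84, and against light touch 0.92, 1.44 and 1.57. Its gene value of 1.44 against light touch was above 98.1% of genes. Both higher probes lay in the outermost 20% of probe numbers, where 5.51% of probes against no stimulus and 5.34% against light touch had a ratio of 1.5 or more, while 1.23% and 1.13% of the other probes had. The remaining probe turns the gene to a log2 ratio of -0.43 against no stimulus and -0.12 against light touch. The direction of Gclm is thus not fixed by these probes, and the part of probe position was not tested.

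All 4 glutathione transferases among the members, which attach glutathione to electrophiles, had ratios above 1 on both arrays. Of the 11534 genes with both values, 33.2% did. Gsta3 had 1.09 and 1.20, Gstm1 1.10 and 1.20, and Gstm2 1.04 and 1.12. Gstp1, with probes at 1.11 and 1.03 and at 1.10 and 1.01, had gene values of 1.07 and 1.05. The group median was 0.11 log2 units against no stimulus and 0.21 against light touch. All 4 stayed above 1 with the middle 80% of probe numbers, with which none of their probes was lost, and with the local median subtracted, when the medians were 0.14 and 0.25. No single value was 25% above 1 as deposited, and Gsta3 was, with a log2 ratio of 0.34, once the local median was subtracted. Mu-class transferases are alike in sequence, so the probes of Gstm1 and Gstm2 may not separate them. Outside the members, Gstm3, Gstm4, Gstm5 and Gstm7 had 0.92, 0.93, 0.99 and 0.97 against no stimulus. Against light touch they had 1.05, 0.98, 1.05 and 1.03. Gsta1, Gsta2 and Gsta4, also outside the members, had gene values above 1 on both arrays. The probes of Gsta2 lay on either side of 1, at 0.86 and 1.33 against no stimulus and at 0.90, 1.32 and 1.27 against light touch. Gsta1 had 1 measured probe, as did Gsta4 against light touch.

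Heme oxygenases break down heme, and Nqo1 reduces quinones. Inducible Hmox1 had ratios of 1.07 and 1.11, constitutive Hmox2 had probes at 1.06 and 1.10 against no stimulus and at 0.98 and 1.05 against light touch, and Nqo1 had 1.11 and 1.12. Gene values were above 1 on both arrays for all 3, as they were for 33.2% of genes with both values. With the local median subtracted, however, 1 of the 3 was at 1 on the light-touch array. The probe of Nqo1 lay in the outermost 20% of probe numbers, and its log2 ratios were then 0.08 and 0.05. Textbook Nrf2 targets among the members were Hmox1, Nqo1, Gclc, Gclm, Srxn1, Txnrd1, Prdx1, Gsta3, Gstm1 and Gstp1. Of these 10, 8 were above 1 on each array, where 51.8% and 51.3% of all genes were. The 8 included Gclm, whose direction was not fixed. The list of targets was written with earlier results of these data known, and the counts depend on it. Among genes not on it, Txn1, Gsr and Slc7a11 were below 1 on both arrays, and Nqo2 and Fth1 above. The median of the 10 was 0.10 log2 units against no stimulus and 0.13 against light touch. With the middle 80% of probe numbers, which loses Nqo1, 6 of 9 were above 1 on each array, against 47.7% and 47.1% of all genes. The 6 were not all the same genes on both arrays.

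Nfe2l2, which encodes Nrf2, had probes at 1.12 and 1.32 against no stimulus, and the one with a value against light touch gave 1.13. Keap1, its inhibitor, had 1 probe, at 0.80 and 0.93. On the no-stimulus array the gene value of Nfe2l2 was above 92.7% of genes, and that of Keap1, the lowest of the 32 members, was at percentile 2.35. The probe of Keap1 lay in the outermost 20% of probe numbers, and with the local median subtracted its log2 ratio was -0.39. The 11 members with the ARE core in the window had medians of 0.10 and 0.11 log2 units, and the 17 members with a window that lacked it had -0.01 and -0.001. Of the 11, 6 and 9 were above 1 on the no-stimulus and the light-touch array. Among the 17, the counts were 8 and 7, and over all genes 51.8% and 51.3% were above 1. The ranges of these groups overlapped, and no test of this difference was made. The 11 included Gclm and Sod2, whose ratios were not settled, and in Nfe2l2 and Prdx4 the core lay after the start. The 17 included the textbook targets Nqo1, Gclc, Srxn1 and Gstm1, and bases outside the windows were not searched. No median was taken over all array genes with the core.

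Taking both arrays, 13 of the 32 members were above 1 on both, 8 below 1 on both, 9 on opposite sides and 2 at 1 on an array. Over the 11534 genes with both values, 33.2% were above 1 on both, 27.0% below on both and 34.2% on opposite sides. The arrays share the tickled group, so likeness between them is not independent support. The 13 were Sod3, Gpx2, Prdx6, Gclc, Gclm, all 4 transferases, Hmox1, Hmox2, Nqo1 and Nfe2l2. The 8 were Gpx4, Prdx2, Prdx5, Txn1, Txnrd2, Gss, Gsr and Keap1, of which Prdx2 was within 1% of 1 on both.

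Light touch and no stimulus were set against each other indirectly, by subtracting the log2 ratio of the light-touch array from that of the no-stimulus array. The difference can be read as light touch over no stimulus if both arrays carried identical tickled RNA, which no source states. The member median was -0.01 log2 units, with 15 above 0 and 17 below, and the all-gene median was 0. In this comparison 2 members were 25% above or 20% below 1, or farther, where 9.71% of genes were. Gpx3 had an indirect ratio of 0.738, at percentile 1.99 of all genes, and Gclm 0.764. Next were Prdx4 at 0.826 and Keap1 at 0.860, and at the other end Gpx2 at 1.21 and Gpx1 at 1.16. The probes of Gclm at 0.74, 1.10 and 2.84 against no stimulus gave 0.92, 1.44 and 1.57 against light touch, in that order. The direction of its indirect difference thus differed between probes. Of the 15 members with 2 or more probes on both arrays, 7 had probe values that did not overlap between the arrays, where 26.6% of such genes did not (4149 genes). They were Gpx1, Gpx3 and Prdx4, and also Sod1, Srxn1, Txn2 and Hmox2, whose values lay close to 1. The transferases had indirect log2 differences between -0.14 and 0.02.

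**Figure D3:**
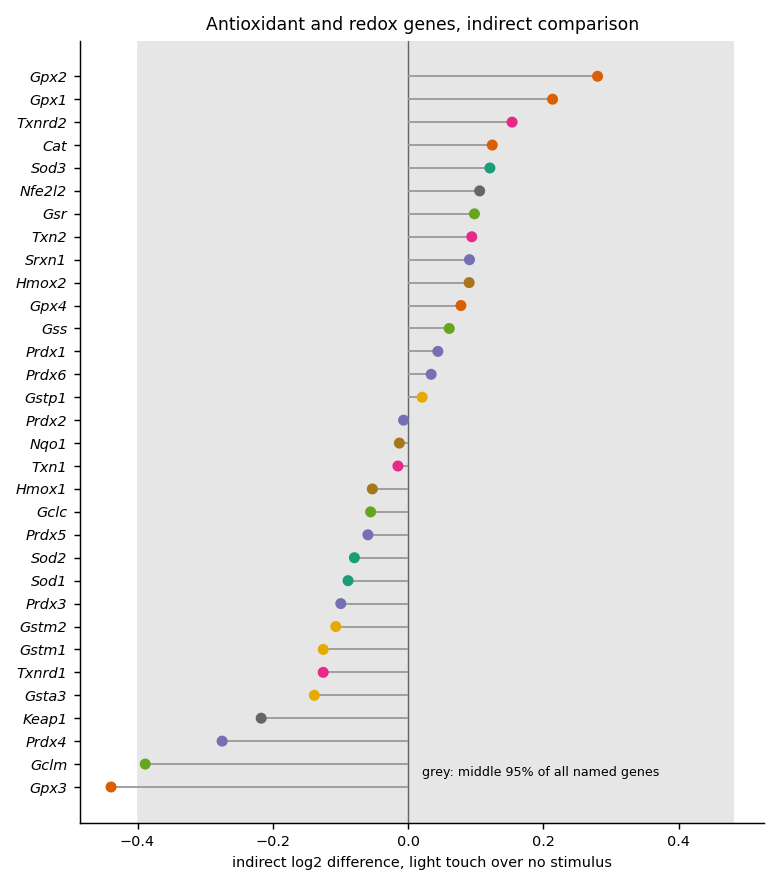
Indirect log2 difference, light touch over no stimulus, for each of the 32 genes in order, coloured by role, with the middle 95% of all named genes in grey. Gpx3 is the member outside the band, and Gclm, whose probes differ in direction, lies just inside it.

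The files hold ratios and no signal levels, so a level of any gene or marker cannot be given. In whole tissue, fewer cells of a type and less RNA per cell cannot be told apart. Of the hypothalamic markers 10 of 16 were above 1 against no stimulus, and 15 of 15 against light touch, with medians of 0.19 and 0.65 log2 units. Their range was from 0.51 for Avp to 1.62 for Pomc against no stimulus. On the light-touch array it was from 1.11 for Avp to 2.13 for Pomc. Thalamic, habenular and cortical markers had medians of 0.43 and -1.03, with 9 of 11 above 1 against no stimulus and 10 of 11 below against light touch. On the light-touch array both medians were farther from 0 than the gene value of any of the 32 members, the farthest being that of Gclm at 0.53. Astrocyte markers were above 1 in 10 of 10 and 8 of 10 cases, with a median of 0.08 on both arrays. The highest were Slc1a2 at 1.18 against no stimulus and S100b at 1.15 against light touch. Oligodendrocyte markers were above 1 in 8 of 9 cases against no stimulus and below in 8 of 9 against light touch, with medians of 0.06 and -0.17. Neuron markers had medians of -0.01 and -0.06, microglial markers 0.02 and 0.06, and endothelial markers 0.11 and -0.02. Markers of red cells, which are rich in Cat, Gpx1 and Prdx2, had medians of -0.60 and -0.34 over 5 measured genes, with 3 below 1 and 2 above on both arrays. Their extremes against no stimulus were Hbb-b1 at 0.52 and Slc4a1 at 1.16. Those of choroid plexus had medians of -0.04 over 8 genes and -0.06 over 7, with Ttr at 0.08 and 0.39 and Sostdc1 at 0.55 and 0.65. Medians were, for those of meninges, 0.28 and 0.11, and for those of the anterior pituitary, 0.48 and 0.13. Pituitary markers ran from 1.10 for Ghrhr to 9.08 for Tshb against no stimulus, where Cga had probes at 2.76 and 18.68. Against light touch they ran from 0.83 for Cga to 1.42 for Gh1. The part of these shifts in the redox values was not tested.

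**Figure D4:**
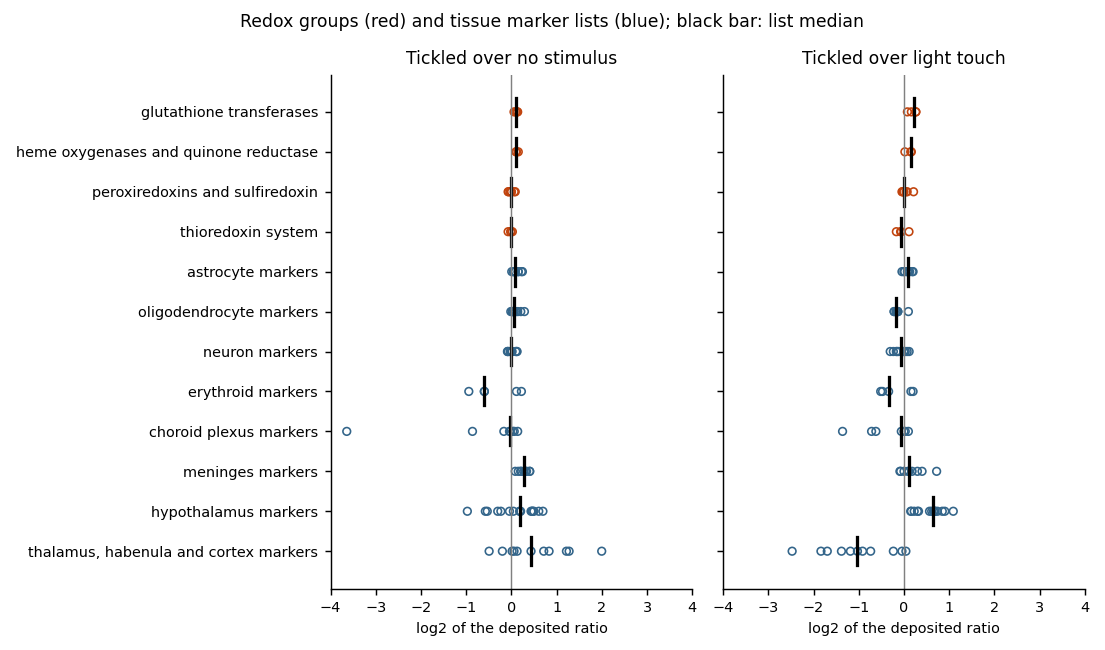
Log2 ratio of each gene (open circles) and list median (black bar) for 4 redox groups in red and 8 tissue marker lists in blue, against no stimulus (left) and light touch (right). The 4 redox groups drawn lie in a narrow range around 0, while thalamic, hypothalamic, red cell and choroid plexus markers spread widely. Microglial, endothelial and anterior pituitary markers are not drawn. Nor are the other redox groups, which hold Gclm, Gpx2, Gpx3 and Keap1, among the members farthest from 1.

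Beyond the 32 members, 112 further genes of the same pathways were listed, of which 95 had a value against no stimulus and 93 against light touch. Their median was 0.03 on both arrays, with 54 above 1 and 38 below against no stimulus, and 52 above and 39 below against light touch. Of these, 6 (6.32%) and 11 (11.8%) were 25% above 1 or 20% below it, or farther, near the 8.36% and 9.47% of all genes. Over all genes the median was 0.01 on both arrays, and 51.8% and 51.3% lay above 1. Among other peroxidases, glutaredoxins and transferases, 17 of 29 genes were above 1 against no stimulus and 17 of 28 against light touch. The gamma-glutamyltransferase gene Ggt5, of a family that handles extracellular glutathione, had 1.68 and 1.51 from 1 probe. Glrx, a glutaredoxin, had a gene value of 1.48 against light touch, from probes at 1.01 and 2.16, and its probes against no stimulus gave 1.02 and 1.07. Mgst3, a microsomal transferase, had probes at 0.77, 0.77 and 0.84 against light touch, and at 0.96, 1.02 and 1.10 against no stimulus. Gsto1, an omega-class transferase, likewise had 0.79 and 0.86 against light touch, but 1.12 and 1.0 against no stimulus. Gstcd had gene values of 0.845 and 0.96.

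Other genes of the Nrf2 and Keap1 pathway were above 1 in 11 of 23 cases against no stimulus and in 15 of 22 against light touch. For this and the lists below, the shares of all genes above 1 were 51.8% and 51.3%. Maff, a small Maf partner of Nrf2, had 2.29 against no stimulus from 1 probe in the outermost 20% of probe numbers and no value against light touch. Nqo2, a relative of Nqo1, had probes at 1.06 and 1.74 against no stimulus and 1.04 and 1.72 against light touch. Bach1, a repressor at the same element, had probes at 0.75 and 0.88 against no stimulus and 1.06 and 0.84 against light touch. Slc7a11, the cystine importer that feeds glutathione synthesis, had 0.75 and 1.01 against no stimulus and 0.82 and 1.13 against light touch. Genes of NADPH supply were above 1 in 4 of 7 cases on both arrays. Antioxidant and thiol repair genes were above 1 in 13 of 24 cases against no stimulus and in 9 of 24 against light touch, with the lowest value that of Msra, a methionine sulfoxide reductase, at 0.83 against light touch and 1.01 against no stimulus.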

How the data were processed

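Dual-colour oligonucleotide arrays compared hypothalamic RNA of tickled rats with that of no-stimulus rats on 1 array and of light-touched rats on another. Per the labels, 500 ng of total RNA was amplified to aminoallyl cRNA and coupled to Cy3 or Cy5. The authors deposited 1 linear ratio per probe and array, to 2 decimals, with a median of 1.00 on both. Image analysis, background correction and normalization were not described in the sources used here. Of 44290 probes, the platform annotation gave 23535 a single (1) symbol and 48 several, and left 20707 without a name here. Entrez identifiers of 23488 were found in the RefSeq table (GRCr8), which changed 1 symbol. Values were present for 30904 probes (no-stimulus array) and 30133 probes (light-touch array).

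Ratios were put on the log2 scale and the median of a gene's probes taken (Python 3.11.15, numpy 2.4.6, pandas 2.3.3). As each comparison had 1 array, no test was run, and the number of arrays limits the precision. Genes were counted at 25% above or 20% below 1 and at 1.5-fold, in either direction. Genes named were all 32 members and, of 112 others on 5 pathway lists, the 3 highest and 3 lowest per array among those with both values and any past 1.5-fold. Members and lists were chosen with earlier results of these data known. The Gsta and Gstm genes outside the 32 members were named after their values were seen. Alternatives were the mean of probes, the middle 80% of probe numbers, subtraction of the median of 200 measured neighbours on either side, genes with 2 or more probes and, added after seeing the data, probes annotated to RefSeq mRNA alone. The calculation was tested on simulated data.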

Additional observations from a re-analysis of the deposited data

How the results depend on the processing

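No paired analysis was possible because each comparison had 1 array and the labels gave no replicate numbers. The member medians kept their sign and moved by less than the probe spread under all 5 alternatives on both arrays. With genes of 2 or more probes, 9 of 16 members were above 1 against no stimulus and 10 of 15 against light touch. Of all such genes, 50.6% and 51.8% were. Against no stimulus 1 of these members was 25% above 1 or 20% below it, or farther, since fewer genes were used. The share of all such genes was 3.70%. Against light touch, 0 members were that far from 1 with the middle 80% of probe numbers, which loses the higher probes of Gclm. With the local median subtracted 2 were, Gclm and Gsta3. The shares of all genes under these settings were 8.94% and 8.49%. The median indirect difference, -0.0098, turned to 0.010 with the mean of probes, 0.034 with the middle 80% and 0.021 with 2 or more probes, all near 0. Gclm against light touch turned to a log2 ratio of -0.12 with the middle 80% of probe numbers. Against no stimulus Gclm moved by more than the probe spread with the mean of probes and with the middle 80%. Sod2 did so against light touch with the middle 80% and against no stimulus with RefSeq mRNA probes alone, as did Gpx2 there. Signal over background was not used here, so dim probes could not be set apart.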

Other observations

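Genes of oxidases that produce superoxide or hydrogen peroxide, the source side of the system, were listed separately. Of 19 such genes 12 had a value on each array. Against no stimulus 9 were above 1 and 3 below, with a median of 0.15 log2 units, and against light touch 7 were above and 5 below, with a median of 0.19. Over all genes 51.8% and 51.3% were above 1, with a median of 0.01 on both arrays. With the middle 80% of probe numbers the medians of these oxidase genes were both 0.07, and those of all genes were 0. The D-amino acid oxidase Dao had 2.64 and 2.40 from 1 probe in the outermost 20% of probe numbers. Cyba, a membrane subunit of the phagocyte NADPH oxidase, had probes at 1.04 and 1.49 against no stimulus and 1.04 and 1.45 against light touch. Cybb, its catalytic partner, had probes at 0.75 and 1.21 against no stimulus, and the probe with a value against light touch gave 1.34. The monoamine oxidases Maoa and Maob, which release hydrogen peroxide, were closer to 1. Maoa had probes at 0.93 and 1.0 against no stimulus and at 0.96 and 0.99 against light touch, and Maob had 1.02 and 1.17. Cyba, Cybb, Maoa and Maob were named after their values were seen.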
